A study of Mus musculus with 25 samples.

Results

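The insulin-like growth factor (IGF) genes examined here were 9 listed genes, taken by symbol from the 56956 genes of the count table: the ligand Igf1, the receptors Igf1r and Igf2r, and the binding proteins Igfbp2, Igfbp3, Igfbp4, Igfbp5, Igfbp6 and Igfbp7. All 9 were found in the table and passed the filter on low counts, which kept 13993 genes. They were followed in RNA of whole sciatic nerve from mouse models of Charcot-Marie-Tooth disease type 1A (CMT1A), a demyelinating neuropathy caused by an extra copy of the gene for peripheral myelin protein 22. The mice were untreated. The study sequenced 25 libraries from 5 groups, with a single library per group at each age, and the ages in weeks were 3, 5, 7, 9 and 12.

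WT-C3 mice were wild-type C57BL/6J. C3 mice (B6.Cg-Tg(PMP22)C3Fbas/J) carried 5 added copies of human PMP22 on that background, and C3-cJunKO mice (C3-PMP22 c-JunP0Cre) carried the same transgene together with a deletion of c-Jun in Schwann cells by a Cre under the P0 promoter. C22 mice (Tg(PMP22)C22Clh) carried 10 added copies and WT-C22 mice were wild-type FVB/NRJ, the background of C22, so that copy number and strain cannot be told apart between the models. The strain of C3-cJunKO is not given in the sources used here, and no group with the Cre or the floxed allele alone was analysed. Each library was a pool of 4 to 5 animals of both sexes and no group had a second pool at an age, so a group's libraries of different age were used as replicates (n = 5). SD and standard error (SE) values thus include any change with age.

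IGF1 is a growth factor made by many tissues as well as by the liver, and it signals through the tyrosine kinase IGF1R to the PI3K-AKT and ERK pathways. IGF1R signaling is known to favor Schwann cell survival and myelination. In the extracellular fluid the ligands are held by binding proteins, which extend their half-life and limit or direct their access to the receptor, and which are cleaved by proteases. IGF2R, the cation-independent mannose-6-phosphate receptor, takes up IGF2 for degradation and sorts lysosomal enzymes.

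The depth on genes ranged from 2140142 counts in the C3 library of 9 weeks to 49072746, with a median of 24663235 and a second lowest of 9001002. Depth differed by group. WT-C3 libraries held 9001002 to 16264172 counts, WT-C22 10196601 to 41376508, C22 20071744 to 27653118 and C3-cJunKO 20619191 to 31717449. C3 libraries other than that of 9 weeks held 23010045 to 49072746. The part of depth in the comparisons with WT-C3 was not tested. The genotype labels were checked with human PMP22. It ranged from 7896 to 16276 CPM in the 15 transgenic libraries and from 0.0392 to 6.43 CPM in the 10 wild-type libraries. Its mean was 11889 ± 1512 CPM (SD) in C22, 12670 ± 1614 CPM in C3 and 11473 ± 3075 CPM in C3-cJunKO. The mean was thus not higher in C22 than in C3, although C22 carried more added copies. Human PMP22 therefore separated transgenic from wild-type libraries, but not C22 from C3. Jun was at 26.4 to 31.8 CPM in C3-cJunKO and at 94.1 to 125 CPM in C3 (log2 fold change -1.90, SE 0.09, edgeR adjusted p = 7.29e-07). The myelin genes that define the tissue, 8 markers of myelinating Schwann cells, summed to between 23893 and 100613 CPM per library, with none at 0.

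Of the promoters of these genes, 4 are shown, those of the 3 genes with the largest called differences, because c-Jun is part of the factor AP-1 and because the c-Jun deletion is one of the comparisons. TGANTCA, where N is any base, was searched as a loose pattern for AP-1 sites, so a match need not be a site that AP-1 binds. The sequences are the 250 bases before an annotated start, from RefSeq on GRCm38.p6, an older build than the one of the counts, on the strand of the gene. Capitals mark TGANTCA, which reads the same on both strands, and the GC box GGGCGG on either strand. Igf1r is at chr7:67952007-67952256 (+), the starts of Igfbp2 at chr1:72824230-72824479 (+) and chr1:72825137-72825386 (+), and Igfbp7 at chr5:77408046-77408295 (-).
Igf1r: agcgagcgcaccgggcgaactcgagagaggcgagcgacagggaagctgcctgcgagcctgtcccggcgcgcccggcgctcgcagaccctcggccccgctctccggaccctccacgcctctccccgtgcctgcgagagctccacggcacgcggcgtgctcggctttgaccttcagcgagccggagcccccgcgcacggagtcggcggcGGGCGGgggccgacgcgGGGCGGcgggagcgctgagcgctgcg
Igfbp2, start 1: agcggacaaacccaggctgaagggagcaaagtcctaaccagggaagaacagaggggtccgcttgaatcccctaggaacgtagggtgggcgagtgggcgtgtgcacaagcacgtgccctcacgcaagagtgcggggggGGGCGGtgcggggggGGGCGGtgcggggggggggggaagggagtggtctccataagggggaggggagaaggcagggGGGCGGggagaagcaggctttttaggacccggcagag
Igfbp2, start 2: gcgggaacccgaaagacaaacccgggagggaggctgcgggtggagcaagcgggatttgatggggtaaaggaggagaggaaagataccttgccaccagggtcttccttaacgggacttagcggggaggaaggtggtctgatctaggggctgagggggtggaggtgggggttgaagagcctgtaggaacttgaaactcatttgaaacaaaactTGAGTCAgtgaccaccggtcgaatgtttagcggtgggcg
Igfbp7: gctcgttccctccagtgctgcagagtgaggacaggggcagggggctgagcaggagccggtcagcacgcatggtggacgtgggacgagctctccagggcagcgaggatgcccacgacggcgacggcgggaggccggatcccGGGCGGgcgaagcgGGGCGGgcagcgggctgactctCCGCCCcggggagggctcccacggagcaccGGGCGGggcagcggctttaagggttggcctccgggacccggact

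Among the 10 promoters of the 9 genes, 2 held a match to the AP-1 pattern, beginning 39 and 37 bases before the start. These were TGAGTCA at the second start of Igfbp2 and TGAATCA at the start of Igf1, which differ in the middle base. A match to this pattern, with any middle base, was found in 6.75% of the 32851 promoters of the table. GC boxes were found in 4 of the 10 promoters (Igf1r, Igf2r, the first start of Igfbp2 and Igfbp7) and in 32.7% of all promoters. These are matches of letters only. The GC content of the Igf1r window was 77.6% and that of Igfbp7 74.0%, against a median of 52.4% over all promoters.

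Igfbp6, Igfbp5, Igfbp4 and Igfbp7 were the most abundant transcripts of the 9 per length. Per kb of merged exons, the median level over the 25 libraries was 474 CPM per kb for Igfbp6, 172 for Igfbp5, 87.6 for Igfbp4 and 36.1 for Igfbp7. The ligand and the receptors were lower, at 11.1 CPM per kb for Igf1, 6.95 for Igf2r and 4.10 for Igf1r, with Igfbp3 at 9.02 among them. Igfbp2 was the rarest, at 1.01 CPM per kb. By mean CPM, Igfbp5 stood above 99.5% and Igfbp2 above 5.83% of the genes kept by the filter.

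**Figure D1:**
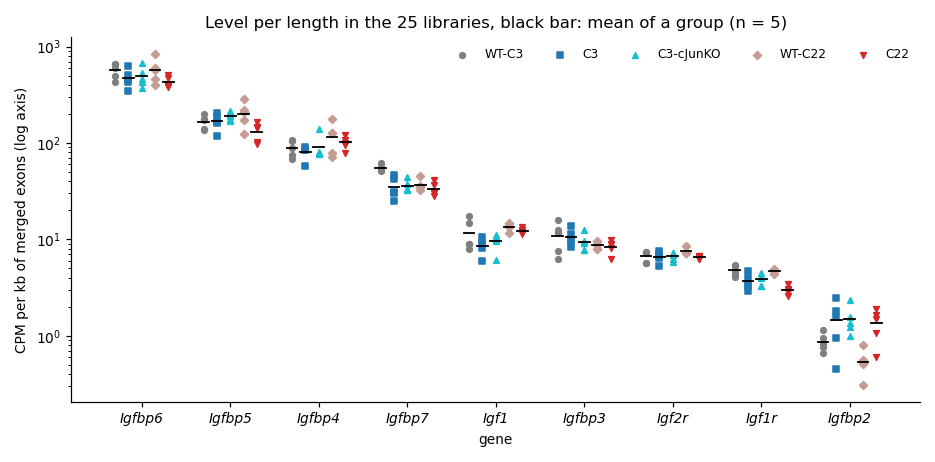
Level of each of the 9 genes in each library, in CPM per kb of merged exons on a log axis, colored by group, with a black bar at the mean of a group (n = 5). Igfbp6 lies highest (median 474 CPM per kb) and Igfbp2 lowest (1.01).

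The genes also differed in how far they moved among libraries. The highest library was 7.96 times the lowest for Igfbp2, while Igf2r varied least, with a ratio of 1.61. For the other 7 the ratio lay between 2.11 (Igf1r) and 3.08 (Igfbp4).

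**Figure D2:**
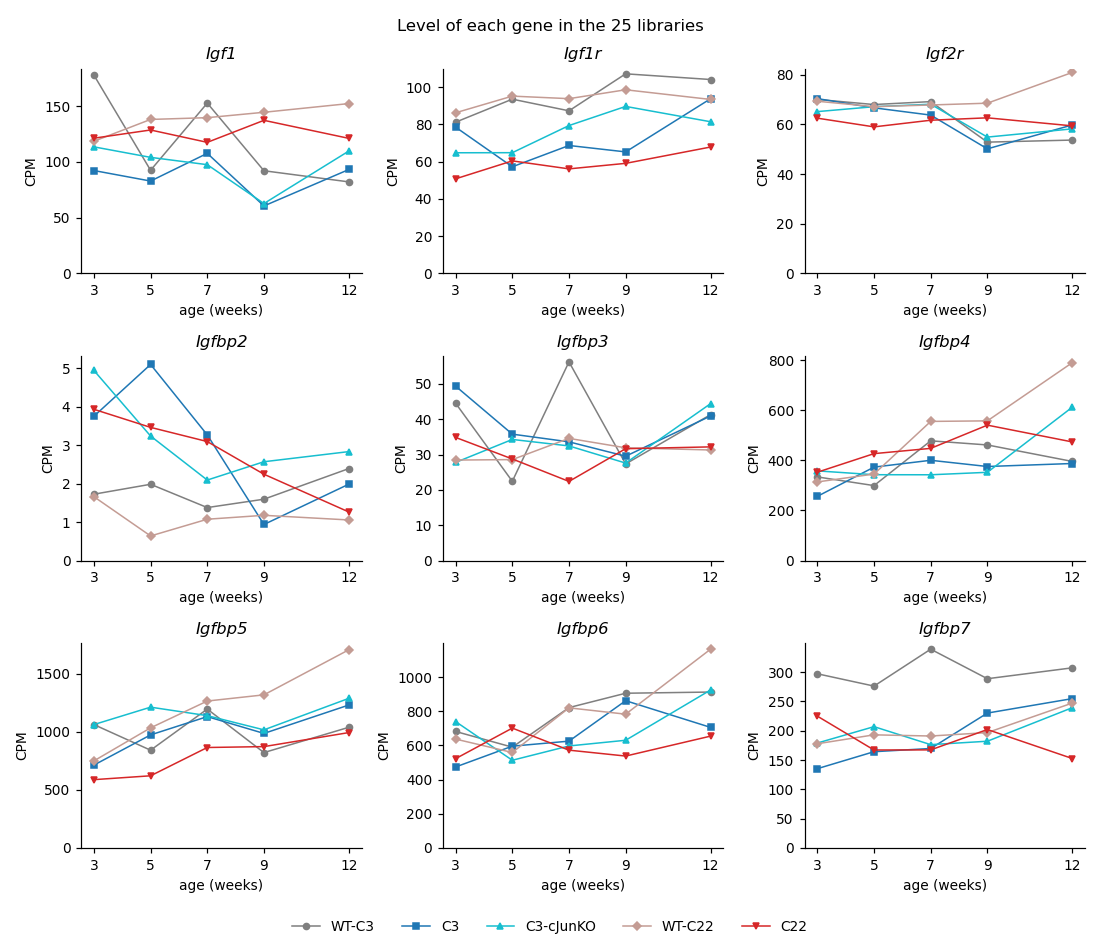
CPM of each gene (vertical axis, from 0) against age in weeks, 1 point per library and 1 line per group. C22 lies below WT-C22 at 5 of 5 ages for Igf1r, Igf2r and Igfbp5, and WT-C3 lies above the other 4 groups at every age for Igfbp7.

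The first question was what the added PMP22 copies changed in each model against its own control. In C22 compared to WT-C22, 4 of the 9 genes passed the threshold of an adjusted p of 0.05 in edgeR's quasi-likelihood test: Igf1r, Igf2r and Igfbp5 fell and Igfbp2 rose. Of all genes tested, 42.4% passed in this comparison, 21.9% higher and 20.5% lower, so 4 of 9 is near the share over all genes. In C3 compared to WT-C3 only Igfbp7 passed, and it fell. There 23.9% of all genes passed, 12.5% higher and 11.4% lower. The groups did not overlap for 2 of the 9 genes in C22 (30.6% of all genes) and for 1 in C3 (17.5% of all genes). Across the 9 genes the median log2 fold change was -0.20 in C22 and -0.14 in C3, beside 0.005 and 0.001 over all genes, and the median size of change without regard to sign was 0.22 in C22 against 0.27 over all genes and 0.27 in C3 against 0.22.

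**Figure D3:**
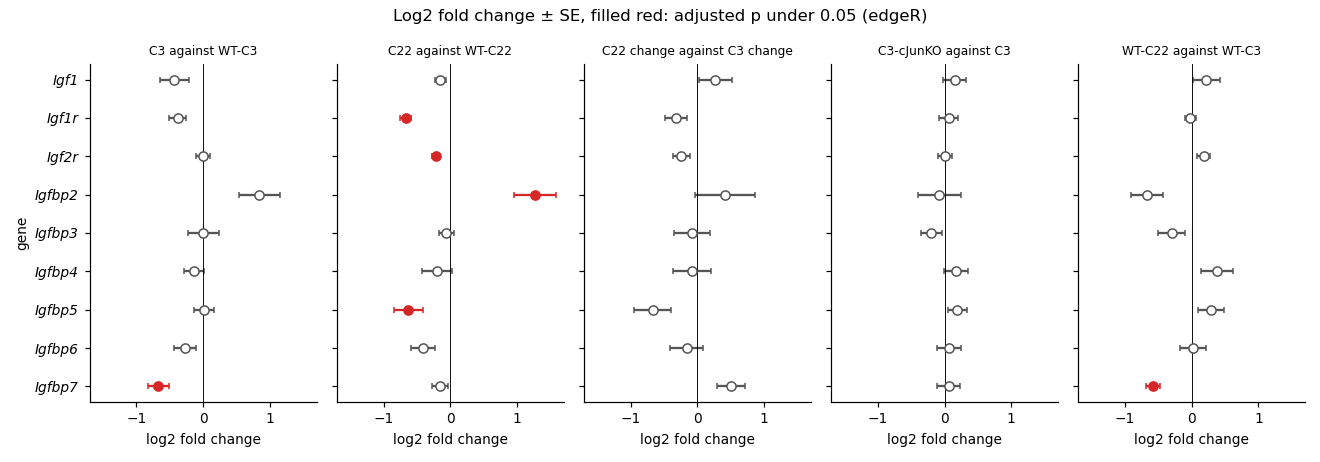
Log2 fold change ± SE of the 9 genes (rows) in the 5 comparisons (panels), from edgeR, filled red where the adjusted p was under 0.05. Red points appear for Igf1r, Igf2r, Igfbp2 and Igfbp5 in C22 and for Igfbp7 in C3 and between the control strains, and none appears for the difference between the models or for the loss of c-Jun.

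Igf1r (ENSMUSG00000005533, chr7:67601518-67883416, + strand, GRCm39) encodes the signaling receptor for IGF1. In C22 its level was 50.7, 60.3, 56.0, 59.0 and 67.8 CPM from 3 to 12 weeks. In WT-C22 it was 86.2, 95.1, 93.7, 98.5 and 93.3 CPM at the same ages. The highest C22 library lay below the lowest WT-C22 library, and the mean was 58.8 ± 6.25 CPM against 93.4 ± 4.51 CPM (SD, n = 5). At 5 of 5 ages Igf1r was the lower in C22, and the group difference was 1.60-fold (log2 fold change -0.67, SE 0.08, edgeR adjusted p = 4.97e-05). Igf1r shares 1247 exon bases with Pgpep1l on the opposite strand, which had at most 15 counts in a library.

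In C3, Igf1r was at 78.4, 57.2, 68.6, 65.2 and 93.7 CPM from 3 to 12 weeks. WT-C3 had 81.1, 93.5, 87.2, 107 and 104 CPM. C3 was below its control at 5 of 5 ages, but the ranges overlapped because the C3 library of 12 weeks was as high as the middle of the controls. The log2 fold change of -0.38 (SE 0.13) did not pass (edgeR adjusted p = 0.0615). This result was near the threshold and passed without the C3 library of 12 weeks (-0.49, edgeR adjusted p = 0.0101), without the WT-C3 library of 3 weeks (-0.43, edgeR adjusted p = 0.0483) and with DESeq2 (adjusted p = 0.0274). C3-cJunKO had 64.7, 64.7, 79.3, 89.6 and 81.3 CPM, within the range of C3. Ordered by group mean, WT-C3 and WT-C22 stood highest at 94.6 and 93.4 CPM, C3-cJunKO and C3 followed at 75.9 and 72.6 CPM and C22 was lowest, and of these neighbors only WT-C22 and C3-cJunKO were further apart than the larger of their SDs.

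Igf2r (ENSMUSG00000023830, chr17:12901293-12988614, - strand) was at 62.5, 59.0, 61.7, 62.7 and 59.4 CPM in C22. In WT-C22 it was at 69.3, 67.2, 67.8, 68.6 and 81.0 CPM. The groups did not overlap, but the gap was small, and the highest control was the library of 12 weeks. Igf2r fell by 0.22 on the log2 scale (SE 0.06, edgeR adjusted p = 0.016). This call was lost with all 25 libraries in 1 fit (edgeR adjusted p = 0.0597), without the filter on low counts (0.0983) and when libraries were scaled by their size only (-0.05, 0.585), a scaling that moved the median of all genes in C22 to 0.174. In C3 the mean was 62.2 ± 7.76 CPM against 62.8 ± 8.70 CPM in WT-C3, with a log2 fold change between -0.23 and 0.23 (±2 SE).

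The ligand Igf1 (ENSMUSG00000020053, chr10:87693642-87772904, + strand) did not pass in any comparison. It was at 178, 92.5, 153, 92.1 and 82.1 CPM in WT-C3 and at 92.3, 82.8, 108, 60.5 and 93.2 CPM in C3. C3 was the lower group at 4 of 5 ages, but the WT-C3 libraries of 3 and 7 weeks stood far above the other 3, and the log2 fold change of -0.43 (SE 0.22) had an edgeR adjusted p of 0.176. In C22 the mean was 125 ± 7.90 CPM against 139 ± 12.5 CPM in WT-C22 (log2 fold change -0.15, SE 0.08, edgeR adjusted p = 0.123). This value passed only when the WT-C22 library of 3 weeks was left out (-0.20, edgeR adjusted p = 0.0374).

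Igfbp2 (ENSMUSG00000039323, chr1:72863606-72891634, + strand) encodes a secreted IGF carrier of developing tissues that also binds integrins. From 3 to 12 weeks it was at 3.93, 3.46, 3.09, 2.24 and 1.26 CPM in C22 and at 1.66, 0.64, 1.07, 1.18 and 1.06 CPM in WT-C22. The C22 level was higher at 5 of 5 ages, with the widest gap at 5 weeks (log2 ratio 2.44) and the narrowest at 12 weeks (0.26), where the C22 level lay in the range of the controls. The difference in time course did not pass (edgeR adjusted p = 0.466). Igfbp2 was 2.41-fold higher in C22 (log2 fold change 1.27, SE 0.31, edgeR adjusted p = 0.00629). These values rest on 33 to 115 counts per C22 library and 6 to 43 counts per WT-C22 library. The filter bears on this gene: a log2 CPM above 1 was reached in 14 libraries, of which 4 were C22, 4 C3, 5 C3-cJunKO, 1 WT-C3 and none WT-C22, but the call was kept without the filter, and over the whole-table alternatives its edgeR or DESeq2 adjusted p ranged from 0.000563 to 0.00926.

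In C3, Igfbp2 was at 3.75, 5.09, 3.26, 0.938 and 1.99 CPM, and in WT-C3 at 1.72, 1.98, 1.38, 1.59 and 2.39 CPM. The C3 libraries of 3, 5 and 7 weeks were above all WT-C3 libraries, whereas those of 9 and 12 weeks were below the control of the same age. The C3 library of 9 weeks held 2 counts of Igfbp2, within the 3 counts taken as the limit of detection. The log2 fold change of 0.84 (SE 0.31) did not pass (edgeR adjusted p = 0.069), but passed without that library (0.94, edgeR adjusted p = 0.0259), without the C3 library of 12 weeks (0.99, 0.0319) and with scaling by library size only (0.90, 0.0489).

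Igfbp5 (ENSMUSG00000026185, chr1:72897091-72914043, - strand) lies 5456 bases from Igfbp2, tail to tail on the opposite strand, and encodes a carrier that also binds extracellular matrix. Its level in C22 was 588, 621, 865, 872 and 993 CPM from 3 to 12 weeks. In WT-C22 it was 749, 1034, 1265, 1318 and 1707 CPM. C22 was lower at 5 of 5 ages, although both groups were higher at each later age and their ranges overlapped. Igfbp5 fell by 0.63 on the log2 scale (SE 0.22, edgeR adjusted p = 0.0342). The call depended on single libraries: it was lost when any of the C22 libraries of 3, 5 or 7 weeks or the WT-C22 libraries of 7, 9 or 12 weeks was left out, at edgeR adjusted p between 0.0503 and 0.0802, and with scaling by library size only (-0.47, 0.111). In C3 the mean was 1007 ± 196 CPM against 992 ± 159 CPM in WT-C3, and the log2 fold change lay between -0.29 and 0.33 (±2 SE). Thus the neighbors Igfbp2 and Igfbp5 went in opposite directions in C22.

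Igfbp7 (ENSMUSG00000036256, chr5:77493130-77555931, - strand) encodes a secreted protein related to the other binding proteins, with low affinity for IGFs, that is abundant in vessels. In C3 it was at 135, 164, 170, 230 and 255 CPM from 3 to 12 weeks, and in WT-C3 at 297, 276, 339, 289 and 307 CPM. The groups did not overlap, and the gap was widest at 3 weeks (log2 ratio -1.14) and narrowest at 12 weeks (-0.27). Igfbp7 was 1.59-fold lower in C3 (log2 fold change -0.67, SE 0.16, edgeR adjusted p = 0.00997). It held without each library in turn (edgeR adjusted p from 0.00199 to 0.0307), and without the shallow C3 library of 9 weeks it was -0.73 (edgeR adjusted p = 0.00962). Igfbp7 shares 747 exon bases with Polr2b on the opposite strand, which had 105 to 2542 counts in a library (median 1310). Whether strand was used in counting is not given in the sources used here, and the part of this overlap in the Igfbp7 counts was not tested.

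In C22, Igfbp7 was at 225, 167, 167, 202 and 153 CPM, and in WT-C22 at 178, 193, 191, 197 and 247 CPM. These ranges overlapped (log2 fold change -0.15, SE 0.12, edgeR adjusted p = 0.355). The control strains themselves differed: WT-C22 was below WT-C3 at 5 of 5 ages with no overlap, at a mean of 201 ± 26.8 CPM against 302 ± 23.9 CPM (log2 fold change -0.58, SE 0.10, edgeR adjusted p = 0.00112). Ordered by mean, WT-C3 was highest, and WT-C22, C3-cJunKO, C3 and C22 followed at 201, 197, 191 and 183 CPM, each closer to the next than the larger SD. The C3 and the strain comparison share the WT-C3 libraries.

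Igfbp3, Igfbp4 and Igfbp6 did not pass in C3, C22 or between strains. Igfbp3 (ENSMUSG00000020427, chr11:7156086-7164179, - strand), the main carrier of IGFs in blood, ranged from 22.4 CPM in C22 at 7 weeks to 56.2 CPM in WT-C3 at 7 weeks, and WT-C3 spread most widely (38.4 ± 13.6 CPM). Igfbp4 (ENSMUSG00000017493, chr11:98932064-98945218, + strand), an inhibitory binding protein cleaved by the protease PAPP-A, ranged from 256 to 790 CPM, with the lowest library in C3 at 3 weeks and the highest in WT-C22 at 12 weeks. Igfbp6 (ENSMUSG00000023046, chr15:102052697-102057953, + strand), which binds IGF2 in preference to IGF1, was at 522, 701, 572, 538 and 654 CPM in C22 and at 637, 558, 820, 783 and 1164 CPM in WT-C22. It was lower in C22 at 4 of 5 ages (log2 fold change -0.41, SE 0.18, edgeR adjusted p = 0.0844), and passed with DESeq2 (-0.42, adjusted p = 0.0376) and without the WT-C22 library of 5 weeks (-0.52, edgeR adjusted p = 0.0266). The widest gaps between C22 and WT-C22 at 12 weeks were in the binding proteins, with log2 ratios of -0.74 for Igfbp4, -0.78 for Igfbp5, -0.83 for Igfbp6 and -0.70 for Igfbp7.

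**Figure D4:**
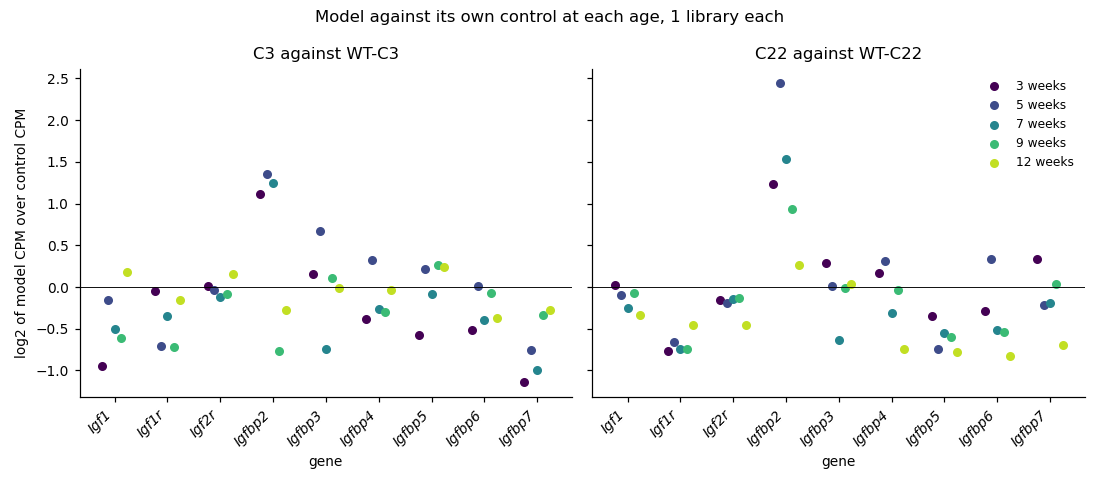
Log2 of the model's CPM over its control's CPM (vertical axis) at each age, 1 library each, for the 9 genes in C3 (left) and C22 (right), colored by age. Igf1r lies below 0 at 5 of 5 ages in both models, from -0.77 to -0.46 in C22, and Igfbp2 lies above 0 at 5 of 5 ages in C22, at 1.24 at 3 weeks, 2.44 at 5 weeks and 0.26 at 12 weeks.

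Whether the change in C22 differed from the change in C3 was tested as an interaction over the 4 groups. With group as the only term, none of the 9 genes passed in edgeR or in DESeq2, beside 12.1% of all genes in edgeR, and 2 of the 9 had an unadjusted p under 0.05. For Igfbp5 the C22 change was lower than the C3 change by a log2 of -0.67 (SE 0.28, edgeR adjusted p = 0.135), and for Igfbp7 it was higher by 0.51 (SE 0.21, edgeR adjusted p = 0.123). The latter passed without the C3 library of 12 weeks (0.66, edgeR adjusted p = 0.0229). For Igf1r the difference was -0.32, between -0.63 and 0.00 (±2 SE), and for Igfbp2 0.41, between -0.50 and 1.31. By this test, the changes called in 1 model (Igf1r, Igf2r, Igfbp2 and Igfbp5 in C22, Igfbp7 in C3) were not shown to differ from those in the other, and the call for Igfbp5 depended on the fit, since its difference passed with age as a block (-0.62, edgeR adjusted p = 0.0359), although equal age was not taken as a pairing there.

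Loss of c-Jun in Schwann cells on top of the C3 transgene was compared with C3, whose libraries are also those of the comparison with WT-C3. None of the 9 genes passed in edgeR or in DESeq2 and none had an unadjusted p under 0.05, beside 0.55% of all genes past the edgeR threshold. The groups overlapped for all 9, beside 2.27% of all genes without overlap, so 0 of 9 is near the share over all genes. With age as a block, which pairs the pools of these groups, 0 of the 9 passed as well, beside 273 of all 13993 genes. The values that follow are from the fit with group as the only term, unless alternatives are named. The log2 fold changes ran from -0.20 (Igfbp3) to 0.19 (Igfbp5), with a median of 0.06. For Igf1r the interval of ±2 SE was -0.22 to 0.34 and for Igfbp7 -0.28 to 0.39. Igfbp2, whose second start holds TGAGTCA, was at 4.94, 3.24, 2.09, 2.57 and 2.83 CPM in C3-cJunKO (log2 fold change -0.08, SE 0.32, edgeR adjusted p = 0.997), and its wide interval of -0.71 to 0.55 does not show equal levels. Igf1, with TGAATCA, was at 114, 104, 97.5, 62.6 and 110 CPM (0.15, SE 0.17, edgeR adjusted p = 0.912). Igfbp5 was higher in C3-cJunKO at 5 of 5 ages, by a log2 of 0.19 (SE 0.14, edgeR adjusted p = 0.841), and did not pass. Over the whole-table alternatives, which include the block, its log2 fold change was 0.18 to 0.21 and its lowest edgeR or DESeq2 adjusted p was 0.41.

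Between the wild-type strains, Igfbp7 was the only one of the 9 to pass, beside 21.7% of all genes (9.99% higher, 11.7% lower) and 17.0% of all genes without overlap. Igfbp2 was lower in WT-C22 than in WT-C3 at 5 of 5 ages (log2 fold change -0.67, SE 0.24, edgeR adjusted p = 0.0721), and passed without the WT-C22 library of 3 weeks (-0.84, edgeR adjusted p = 0.0262). Igf1r and Igfbp6 were closest, and the difference of Igf1r was -0.02 (SE 0.08), between -0.19 and 0.15 (±2 SE).

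Age was examined with a spline in 1 fit of the 25 libraries, followed by a linear slope for the direction. In C3, Igfbp7 was the only one of the 9 with an age effect (edgeR adjusted p = 0.0414), with a slope of 0.104 log2 per week (SE 0.021), beside 2.27% of all genes. It was lost with the log2 CPM filter (adjusted p = 0.0515) and, as a slope, without the C3 library of 3 weeks (0.141) or 12 weeks (0.0798). In WT-C22, Igfbp4 rose with age (edgeR adjusted p = 0.0238, slope 0.152 log2 per week, SE 0.03) from 314 CPM at 3 weeks over 345, 555 and 558 to 790 CPM at 12 weeks, beside 2.86% of all genes. Its slope did not pass without the WT-C22 library of 3 weeks (0.069) or 12 weeks (0.129). As slopes, Igfbp5 (0.123 log2 per week, SE 0.026, edgeR adjusted p = 0.00654) and Igfbp6 (0.103, SE 0.029, 0.0311) also passed in WT-C22, though not with the spline, beside 7.77% of all genes as slopes. Neither passed without the WT-C22 library of 3 or of 12 weeks, nor did Igfbp6 without that of 5 weeks.

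None of the 9 genes had an age effect by the spline in WT-C3, C22 or C3-cJunKO, beside 0.693%, 0.752% and 3.38% of all genes. The time courses of model and control were not shown to differ for any of the 9 genes in C3 or C22. For this difference, 0.0261% of all genes passed in C3 and 0.0523% in C22. With 5 residual degrees of freedom and so few genes passing, the spline test does not show equal time courses. The lowest adjusted p of these tests was 0.547 in C3 and 0.322 in C22, both for Igfbp7. Its slope difference was 0.097 log2 per week for C3 minus WT-C3 and -0.085 for C22 minus WT-C22. Each had an SE of 0.029, and neither passed as a slope. In C22 minus WT-C22 the slopes of 8 of the 9 genes were negative, and none passed as a slope, beside 0.464% of all genes. The share of negative slopes over all genes was not determined. These slopes share the WT-C22 library of 12 weeks, the highest of its group for Igf1, Igf2r, Igfbp4, Igfbp5, Igfbp6 and Igfbp7.

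The genes that act around the ligand and receptor were described with lists. Among the 12 genes of receptors and adaptors, 10 were tested, and in C22 3 rose and 2 fell, a share near the 42.4% of all genes. Irs1, the docking protein that carries the receptor signal to PI3K, fell by 0.98 on the log2 scale (SE 0.12, edgeR adjusted p = 8.54e-05), and its change differed from that in C3 (-0.73, SE 0.18, edgeR adjusted p = 0.00839). Grb10, an adaptor that inhibits the receptor, fell by 0.41 (SE 0.08, edgeR adjusted p = 0.00159). The tyrosine phosphatase gene Ptpn1 rose in C22 (0.37, SE 0.07, edgeR adjusted p = 0.000998) and in C3 (0.41, SE 0.09, edgeR adjusted p = 0.00833), as did Inppl1 (0.31 and 0.27, edgeR adjusted p = 0.00313 and 0.0152), while Shc1 rose in C22 (0.23, SE 0.08, edgeR adjusted p = 0.0307) and Grb14 fell in C3 (-0.37, SE 0.08, edgeR adjusted p = 0.0094). The median over the list was -0.11 in C22 and -0.15 in C3.

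Of the 17 genes of PI3K, AKT and FoxO, 1 rose and 4 fell in C22, and 2 rose and 1 fell in C3, with medians of -0.06 and 0.03. Both shares were below the 42.4% and 23.9% of all genes. Those that fell in C22 were Pik3r1, a regulatory subunit of PI3K (-0.50, SE 0.16, edgeR adjusted p = 0.0289), the transcription factors Foxo1 (-0.39, SE 0.13, edgeR adjusted p = 0.0346) and Foxo4 (-0.46, SE 0.07, edgeR adjusted p = 0.00036), and Rheb, an activator of mTOR (-0.20, SE 0.07, edgeR adjusted p = 0.0323). Pik3r2 rose in both models, by 0.36 in C22 and 0.52 in C3 (edgeR adjusted p = 0.000992 and 0.00242). Mtor rose (0.32) and Rheb fell (-0.37) in C3 (edgeR adjusted p = 0.00785 and 0.00273). Between the changes of the models, Tsc2 (-0.37) and Mtor (-0.28) passed, at edgeR adjusted p of 0.0494 and 0.0477.

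Of the 10 genes of proteases that cleave binding proteins and their inhibitors, 8 were tested, and none passed in C3, beside 23.9% of all genes. In C22, 3 of 8 passed, a share near that of all genes: Htra1 (0.29) and Ctsd (0.66) rose and Adamts1 fell (-0.57), at edgeR adjusted p of 0.0289, 0.0143 and 0.0233. Ctsd, the lysosomal protease cathepsin D, also passed for the difference between the models (0.94, SE 0.25, edgeR adjusted p = 0.0163). Of the 6 genes of the growth hormone axis, only Jak2 passed in C22 (0.26, SE 0.09, edgeR adjusted p = 0.0306) and none in C3, beside 42.4% and 23.9% of all genes. Jak2, Cish and Ghr were higher in WT-C22 than in WT-C3 (0.35, 1.02 and 0.73, edgeR adjusted p = 0.00907, 0.00521 and 0.0398).

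Of the 9 genes listed as other ligands and carriers, 3 passed the filter, Igfals, Igf2bp1 and Igf2bp2. The ligands Igf2, Ins1 and Ins2 and the carrier Igfbp1 were not tested, nor were Igfbpl1 and Igf2bp3. Igfals, a carrier, did not pass in C3 (-0.45, SE 0.47, edgeR adjusted p = 0.513) or C22 (-0.13, SE 0.34, edgeR adjusted p = 0.784). The calls of this list come from Igf2bp1 and Igf2bp2, which encode RNA-binding proteins. Igf2bp1, an RNA-binding protein named for the IGF2 transcript, fell in C22 (-2.25, SE 0.23, edgeR adjusted p = 2.02e-05) and in C3 (-1.07, SE 0.30, edgeR adjusted p = 0.0219), its change differing between the models (-1.19, SE 0.38, edgeR adjusted p = 0.0468), and Igf2bp2 rose in C22 (0.73, SE 0.18, edgeR adjusted p = 0.00602). None of the tested genes of these lists passed in C3-cJunKO compared to C3, beside 0.55% of all genes. Between the strains 3 of 6 growth hormone genes, 4 of 8 proteases and inhibitors, 2 of 10 receptor and adaptor genes and 4 of 17 PI3K genes passed, beside 21.7% of all genes, a share that the last 2 lists were near.

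In whole nerve, fewer cells of a type and less RNA per cell cannot be told apart, and markers of some other cell types moved with the groups in which the IGF genes changed. Of all genes, 21.9% passed as higher and 20.5% as lower in C22. In C22, 6 of 6 perineurial markers were lower, with a median log2 fold change of -0.73 and a summed level of 924 to 1180.3 CPM against 1367 to 2096 CPM in WT-C22. Of the vascular markers, 6 of 8 endothelial (median -0.51, 497 to 835 CPM against 743 to 1018 CPM) and 5 of 8 pericyte and smooth muscle genes (-0.56, 686 to 1279 CPM against 1098 to 1883 CPM) were lower. Fibroblast markers were lower for 2 of 10 (-0.15), near the share of all genes, and ranged from 7762 to 15644 CPM against 9002 to 16507 CPM. Of 10 macrophage markers, 2 were higher and 1 lower (0.03, 377 to 573 CPM against 405 to 616 CPM). Of 8 myelinating Schwann cell markers, 1 was higher and 4 lower (-0.18, 23893 to 36157 CPM against 46547 to 94807 CPM). None of these genes was at 0 in a group, and their part in the changes of Igf1r, Igf2r, Igfbp2 and Igfbp5 was not tested.

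In C3, where Igfbp7 fell, 4 of 6 perineurial markers were lower (median -0.57, summed 1248 to 1744 CPM against 1332 to 2118 CPM), as were 2 of 8 endothelial markers (-0.30, 524 to 876 CPM against 741 to 902 CPM) and 3 of 8 pericyte and smooth muscle genes, 1 being higher (-0.32, 844 to 1463 CPM against 1305 to 1634 CPM). Of all genes, 12.5% passed as higher and 11.4% as lower in C3. Among 10 fibroblast markers 1 was higher and 1 lower (median 0.0), and among 10 macrophage markers 1 was higher (0.02). Among 8 myelinating Schwann cell markers 2 were higher and 2 lower (-0.04). All 6 tested markers of immature and repair Schwann cells, of 8 listed, were higher in C3 (median 2.02, 305 to 422 CPM against 127 to 165 CPM), and in C22 3 were higher and 2 lower (0.50, 180 to 267 CPM against 150.3 to 203 CPM), with Shh at 0 in C22. In C3-cJunKO compared to C3, Ngfr (-1.08) and Gfap (-1.35) of this list fell (edgeR adjusted p = 0.000288 and 0.00984), beside 0.55% of all genes passing. No marker of another list passed. Between the strains, where Igfbp7 was lower in WT-C22, 2 of 6 perineurial markers were lower (-0.23). Of 8 endothelial markers 1 was higher and 1 lower (median 0.16), and of 8 pericyte and smooth muscle genes 1 was higher and 0 lower (0.05). The vascular markers that passed were Egfl7, which was lower (-0.35, edgeR adjusted p = 0.0206), and Flt1 and Abcc9, which were higher (0.31 and 0.41, edgeR adjusted p = 0.0144 and 0.0235). Adipocyte markers were higher for 3 of 5 (median 1.06, 971 to 2868 CPM against 827 to 1611 CPM). Of all genes, 9.99% passed as higher and 11.7% as lower between the strains. The part of these cell types in the levels of Igfbp7 was not tested. Skeletal muscle and blood, which can be carried along with a nerve, were uneven (5.05 to 8423 CPM and 45.5 to 1579 CPM), with no marker passing in any comparison.

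The genes most like each of the 9 over the 25 libraries were named by Pearson's r of log2 CPM, among 11725 other genes with a mean of at least 5 CPM (11726 for Igfbp2). The libraries share groups, ages and depth, so these values are descriptions. Igf1r was most like Nadk2, Zc2hc1a and Efcab2 (r from 0.903 to 0.908), of which Efcab2 stayed near after group means were removed (0.868). The abundant binding proteins had close partners: Igfbp4 was most like Tmem43 (0.938), Pla2g15 (0.924) and Nnmt (0.907), and Igfbp6 most like Sdc1 (0.912), Plekhb2 (0.894) and Pef1 (0.882). Igfbp7 was most like Pcbd2, Txn1 and Tmsb4x (0.887 to 0.899) and Igfbp5 most like Scara3, Dcaf5 and Lrrc32 (0.830 to 0.848). Igf1 was most like Lrrc17 (0.867), Mrc1, a macrophage receptor (0.854), and Kctd12 (0.826). Igf2r was most like Hdlbp, Igsf10 and Pamr1 (0.798 to 0.816), Igfbp2 most like Dusp6, a phosphatase of ERK (0.855), Brsk1 and Tubb2b, and Igfbp3 had no close partner, with Adnp2 highest at 0.654.

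Among the 9 genes themselves, Igfbp4 and Igfbp6 were most alike (r = 0.68, and 0.80 after group means were removed), with Igfbp4 and Igfbp5 at 0.54 and 0.76. The ligand Igf1 went with Igf2r (0.64 and 0.68) and not with its receptor Igf1r (0.01 and -0.30). Igf1r and Igfbp2 were opposed (-0.58), less so once group means were removed (-0.38). These r values are over 25 libraries.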

How the data were processed

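Fragments of poly(A) RNA were read in pairs from 25 pooled libraries. Per the submitters' processing notes and the methods, the authors used FastQC 0.11.9, cutadapt 2.10, STAR 2.7.5a, UMI-tools 1.1.1 and HTSeq 0.12.4 on GRCm39 with a human locus added, and deposited raw counts per gene without normalization; the strand setting is not given in the sources used here. All library columns were used. Between 8.12% and 12.11% of fragments on no gene stayed out of the depth. Positions and exon lengths are from GENCODE M39.

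edgeR 4.0.16 in R 4.3.3 was run on the counts with these settings: log2 CPM above 1 in at least 7 libraries, TMM factors among the libraries compared, a quasi-likelihood test with group as the only term, and Benjamini-Hochberg adjustment over all 13993 genes at 0.05. SE is the size of the log2 fold change over the square root of F. Levels are CPM with TMM factors over all libraries. Age used a natural spline (3 degrees of freedom, 15298 genes, 5 residual degrees of freedom) and a linear slope (15). DESeq2 1.42.0 was an alternative test. Steps were tested on simulated counts. Figures used Python 3.11.15 and matplotlib 3.10.9.

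The 9 genes and all lists were chosen with earlier results of these data known. Named genes are the 9, the 3 most alike for each, list genes past the threshold, all genes of the ligand and carrier list, Jun and human PMP22. P-values measure the spread among pools of different age. The main fit paired no pools. Pools of equal age were taken as pairs, in the alternative fit with age as a block, for C3-cJunKO against C3 only. There their deviations from group means correlated across genes at 0.438, 0.123, 0.347, 0.264 and 0.615.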

Additional observations from a re-analysis of the deposited data

Results flagged for a closer look

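In 45 sets of 5 libraries (the 9 genes in 5 groups), 4 held a library whose gap to its nearest neighbor, as a share of the range of its group, was above Dixon's 95% limit, which about 1 set in 20 passes by chance. Igf2r in WT-C22 was highest at 12 weeks, at 80.98 CPM, while the other libraries lay between 67.2 and 69.3 CPM. Igfbp7 in WT-C22 was also highest at 12 weeks, at 247.31 CPM against 178 to 197 CPM. Igfbp4 was lowest in C3 at 3 weeks, at 256.33 CPM against 373 to 400.3 CPM, and highest in C3-cJunKO at 12 weeks, at 612.52 CPM against 342 to 358 CPM. The WT-C22 library of 12 weeks enters the calls of Igf2r in C22 and of Igfbp7 between the strains. Both calls held without each library in turn. The edgeR adjusted p ranged from 0.0173 to 0.0371 for Igf2r and from 0.000135 to 0.00481 for Igfbp7.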

How the results depend on the processing

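Pools, not animals, were the replicates, and the ages of a group stood in for repeats. The C3 library of 9 weeks held 2 counts of Igfbp2. Of the 9 genes, 2 were called in C3 in place of 1 with scaling by library size only, with DESeq2, with all 25 libraries in 1 fit and with age as a replicate block, and 1 to 3 without a library in turn. The second gene was Igfbp2 with library size only and Igf1r in the other 3 settings (0.0403 with the block). In C22, 2 were called in place of 4 with library size only, where Igf2r and Igfbp5 were lost, and Igf1r and Igfbp2 were called under every alternative run. For the difference between the models, 1 was called in place of 0 with age as a replicate block (Igfbp5, -0.62, edgeR adjusted p = 0.0359), and 0 to 1 without a library. Between the strains 1 to 2 were called without a library. In these comparisons equal age was not taken as a pairing, since at 1 or more ages the pools correlated weakly or negatively. The lowest correlation was -0.224 for C3 and WT-C3 (5 weeks) and -0.15 for C22 and WT-C22 (12 weeks). Between the strains it was 0.046 at 12 weeks, but 0.342, 0.653, 0.148 and 0.536 at the earlier ages. The cause of the changes with the block was not tested. For the loss of c-Jun, no setting called any of the 9, while over all genes 77 calls became 250 with DESeq2, 131 without a filter, 139 with all libraries in 1 fit and 273 with the replicate block, and 43 to 50 without the C3 or C3-cJunKO library of 5 or 7 weeks or the C3-cJunKO library of 9 weeks.

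Genes with age effects were 1 in place of 0 in C3-cJunKO and 2 in place of 1 in WT-C22 with 2 degrees of freedom, 0 in place of 1 in C3 with the log2 CPM filter, and 3 in WT-C22 as slopes. As slopes without a library they were 0 to 1 in C3, 0 to 1 in WT-C3 (without the library of 5 weeks) and 0 to 3 in WT-C22.

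Library size only moved the share of higher genes among all calls from 52.1% to 71.4% in C3, from 51.7% to 76.0% in C22 and from 39.4% to 63.1% in the difference, and the number of the 9 genes with a negative value in C22 from 8 to 5. Values that changed sign were uncalled and near 0. With library size only they were Igf2r in C3 (0.08), Igf1 (0.01), Igfbp3 (0.11) and Igfbp7 (0.02) in C22, and Igfbp3 (0.04) and Igfbp4 (0.02) in the difference. In C3 they were also Igf2r without a filter (0.02), with filterByExpr (0.01) and in 1 fit (0.0001), and Igfbp3 with median-ratio factors (-0.0015) and DESeq2 (-0.01). For the loss of c-Jun they were Igf2r with DESeq2 (-0.0057) and in 1 fit (-0.0002), and between the strains Igf1r without a filter (0.02) and Igfbp6 with the replicate block (-0.0069).

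Leaving out 1 library in turn gave sign changes in these ranges: in C3, Igf2r -0.06 to 0.06, Igfbp3 -0.14 to 0.18 and Igfbp5 -0.06 to 0.13. In C22 they were Igfbp3 -0.12 to 0.03 and Igfbp4 -0.33 to 0.01. In the difference they were Igfbp3 -0.25 to 0.09, Igfbp4 -0.19 to 0.13 and Igfbp6 -0.26 to 0.01. For the loss of c-Jun they were Igf1r -0.02 to 0.18, Igf2r -0.05 to 0.05, Igfbp2 -0.29 to 0.15, Igfbp4 -0.04 to 0.22, Igfbp6 -0.07 to 0.19 and Igfbp7 -0.05 to 0.19. Between the strains they were Igf1r -0.07 to 0.03 and Igfbp6 -0.16 to 0.12.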
